A study of Mus musculus with 9 samples.

Results

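Transcripts of 10 Kruppel-like factors, Klf2, Klf3, Klf4, Klf5, Klf6, Klf7, Klf9, Klf10, Klf13 and Klf15, were followed in the hearts of NOD-SCID mice. They were found by matching their symbols to mouse Ensembl IDs in the deposited count files, which list 53465 gene IDs. All 10 were matched, and all 10 passed the filter on low counts that left 13825 genes to test. The study holds 9 libraries in 3 groups of 3. The sham group had sham surgery, the ligation group had a coronary artery tied off (the names of its deposited files add that a vehicle was given), and the cell group had the same ligation followed by implantation of cells named FOXO3-GE-MPCs. All 3 groups are of the NOD-SCID strain, which lacks functional T and B lymphocytes, and the labels give the infarct border zone as the sampled tissue in every group. The animals' age, the time after surgery, the number of animals behind a library and the species of the implanted cells are not given in the sources used here. For cell replicates 2 and 3 one label gives a different FOXO number, while titles and treatment give FOXO3 for all 3 libraries, and these were followed.

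Kruppel-like factors are DNA-binding proteins with zinc fingers at the C-terminal end, which recognise GC-rich and CACCC sequences. Klf2, Klf4, Klf5, Klf6 and Klf7 belong to a branch that mostly activates transcription, Klf3 to a branch that represses through the corepressor CtBP, and Klf9, Klf10 and Klf13 to a branch that binds the corepressor Sin3. In the vessel wall, Klf2 and Klf4 are induced by laminar flow and keep the endothelium anticoagulant and anti-inflammatory, while in cardiomyocytes Klf15 drives amino acid and lipid catabolism and restrains hypertrophic growth.

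Libraries held 4549268 to 7515052 gene counts. The libraries labelled as heart carried abundant cardiomyocyte markers, whose summed level over 8 genes was 52426 to 53591 CPM (counts per 1000000 gene counts, after TMM scaling) in sham, 39834 to 41971 in ligation and 39804 to 40700.4 with cells. Summed levels of 7 lymphocyte markers were at most 3.20 CPM in every library, with Ms4a1 at 0 counts in all 9. Sham replicates 1 and 2 share a name stem in their file headers, as do ligation replicates 2 and 3. These pairs differed by more than sampling noise (mean chi-square per gene 3.96 and 2.30, against 1.98 to 3.65 in the other replicate pairs), so all 9 libraries were kept. Nothing in the labels says that replicates came from separate animals, so p-values measure the spread between these libraries, which may be technical. In bulk tissue, fewer cells of a type and less RNA per cell cannot be told apart.

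Per kilobase of exon, Klf2 was the highest of the 10 in each group and Klf5 the lowest. Klf2 stood at 66.1 ± 3.44 CPM per kb in sham (SD, n = 3), 57.3 ± 2.82 in ligation and 101 ± 3.76 with cells. Klf4 followed at 34.0 ± 2.28, 27.9 ± 1.63 and 44.5 ± 1.32 CPM per kb, and Klf6 was the third in each group. Below them the order of levels was Klf9, Klf15 and Klf13, then Klf10 and Klf3, then Klf7. Klf10 and Klf3 overlapped in all 3 groups, and they were the only neighbours in that order whose ranges did. The 10 levels summed to 176 ± 5.06 CPM per kb in sham, 168 ± 5.44 in ligation and 228 ± 3.40 with cells. Klf2 made up 37.6% ± 1.39 of that sum in sham, 34.1% ± 1.62 in ligation and 44.2% ± 1.02 with cells, and the shares of Klf15 were 7.98% ± 0.194, 8.62% ± 0.533 and 5.19% ± 0.592. The stacked plot of per-length levels shows a taller column in all cell libraries, most of the added height lying in the Klf2 and Klf4 segments.

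**Figure D1:**
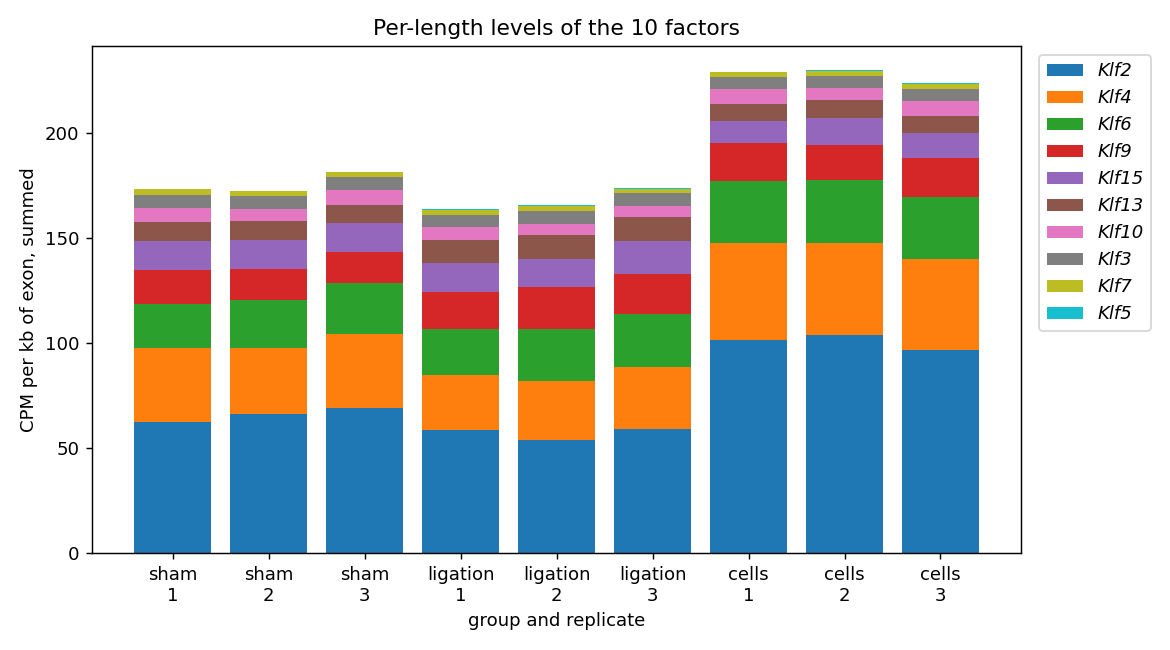
Per-length levels of the 10 factors in each library, stacked, in CPM per kb of exon on the vertical axis, with group and replicate on the horizontal axis. The 3 cell columns sum to 224 to 230.2 CPM per kb, above every sham and ligation column (164 to 182).

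After ligation 5 of the 10 factors passed an adjusted p of 0.05 in edgeR (quasi-likelihood test, p-values adjusted over all 13825 genes by Benjamini-Hochberg). The same was true of 38.2% of all genes tested. Klf5, Klf9 and Klf13 rose (20.1% of all genes were called higher; Klf5 met the filter on low counts through libraries of the ligation group) and Klf2 and Klf4 fell (18.0% were called lower). With cells against ligation 5 again passed, where 9.87% of all genes did. Klf2, Klf4 and Klf6 were higher with cells (4.19% of all genes) and Klf13 and Klf15 lower (5.69%). With cells against sham 6 passed, against 40.9% of all genes. Klf2, Klf4, Klf5, Klf6 and Klf9 were higher (21.0%) and Klf15 lower (20.0%). Leaving Klf5 aside, the counts were 4 of 9 after ligation and 5 of 9 with cells against sham. Without sham replicate 2 the count was 3, the calls of Klf5, Klf9 and Klf15 being lost. The medians over the 10 factors were 0.00, 0.05 and 0.14 on the log2 scale, beside 0.01, 0.00 and -0.01 over all tested genes. The comparisons share libraries, so their calls are not independent. The plot of changes shows that the intervals of Klf2 and Klf4 lie below 0 after ligation and above 0 with cells.

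**Figure D2:**
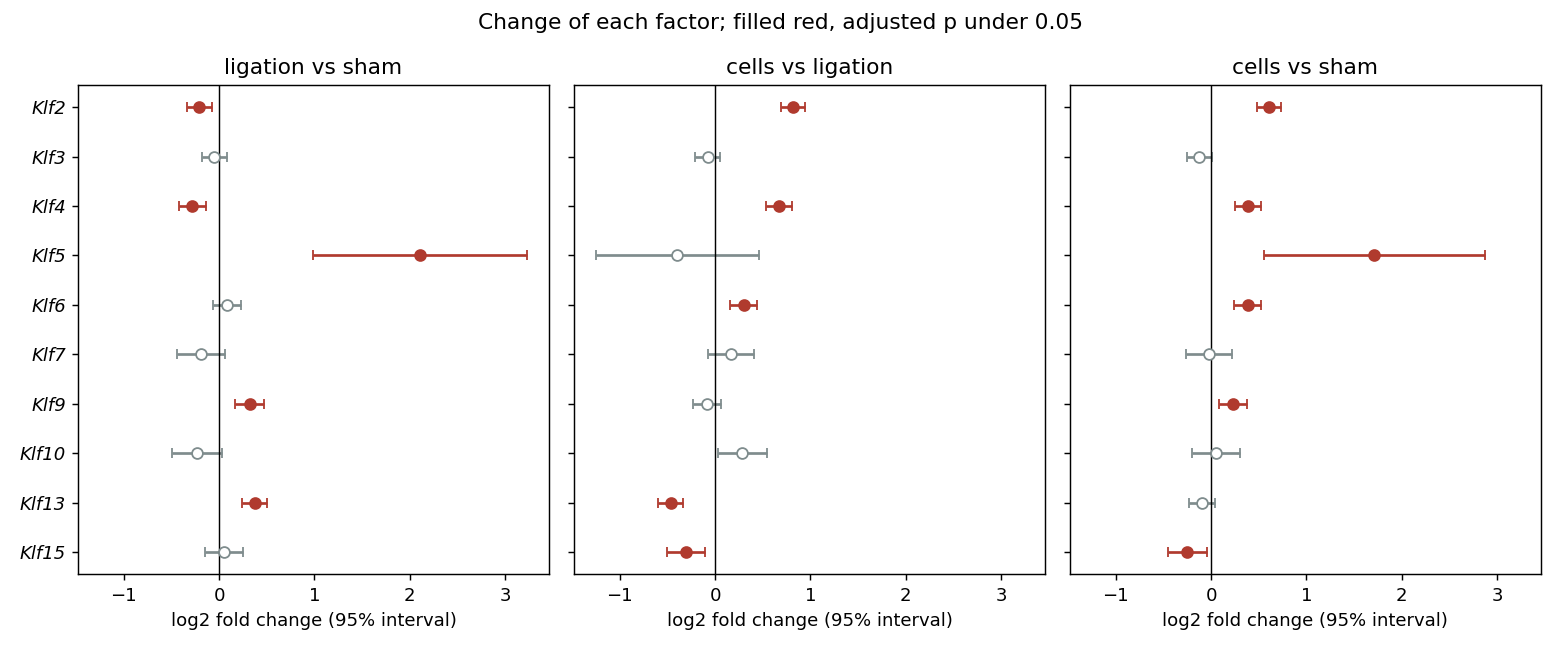
Log2 fold change of each factor (horizontal axis, points with 95% intervals) in the 3 comparisons, filled red where the adjusted p is under 0.05. Klf2 has the largest change of cells against ligation (0.82), and Klf5 has the widest intervals.

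Klf2, whose product is a flow-induced endothelial activator, stood at 115, 123 and 128 CPM in sham replicates 1 to 3, at 108, 99.8 and 109 CPM in ligation, and at 188, 192 and 179 CPM with cells. All ligation libraries were below all sham libraries, and all cell libraries were above the other 6. The fall after ligation was small (0.866-fold, 95% interval 0.792 to 0.948, edgeR adjusted p 0.0117). It did not pass without sham replicate 3 (edgeR adjusted p 0.0605) or without ligation replicate 2 (0.0810). With cells Klf2 was 1.76-fold its level in ligation (95% interval 1.61 to 1.92, edgeR adjusted p 7.49e-09) and 1.52-fold its level in sham (1.40 to 1.66, edgeR adjusted p 6.64e-08).

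Klf4, a close relative of Klf2 with an overlapping role in endothelium and roles in smooth muscle and macrophage polarisation, had the same order of groups. It stood at 108, 95.6 and 107 CPM in sham, at 79.7, 86.0 and 89.5 CPM in ligation, and at 140.4, 134 and 133 CPM with cells. The 3 groups did not overlap. Klf4 was 0.824-fold its sham level after ligation (95% interval 0.748 to 0.908, edgeR adjusted p 0.00227). With cells it was 1.59-fold its level in ligation (1.45 to 1.75, edgeR adjusted p 4.43e-07) and 1.31-fold its level in sham (1.19 to 1.44, edgeR adjusted p 5.60e-05). With library totals in place of TMM factors, the median of all genes moved by 0.19 on the log2 scale in ligation against sham. The falls of Klf2 and Klf4 then missed the threshold (edgeR adjusted p 0.834 and 0.304), Klf6 and Klf15 passed it, and the split became 5 higher and 0 lower.

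Klf6, a factor induced by injury in endothelium and other cells, passed in both comparisons with the cell group. It stood at 91.7, 101 and 107 CPM in sham, 96.5, 108 and 112 CPM in ligation, and 131, 131 and 129 CPM with cells. Sham and ligation overlapped, and every cell library lay above both. The ratio of cells to ligation was 1.23-fold (95% interval 1.12 to 1.36, edgeR adjusted p 0.00514) and that of cells to sham 1.31-fold (1.18 to 1.44, edgeR adjusted p 0.000115). For ligation against sham the interval was 0.958 to 1.17 (edgeR adjusted p 0.373).

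**Figure D3:**
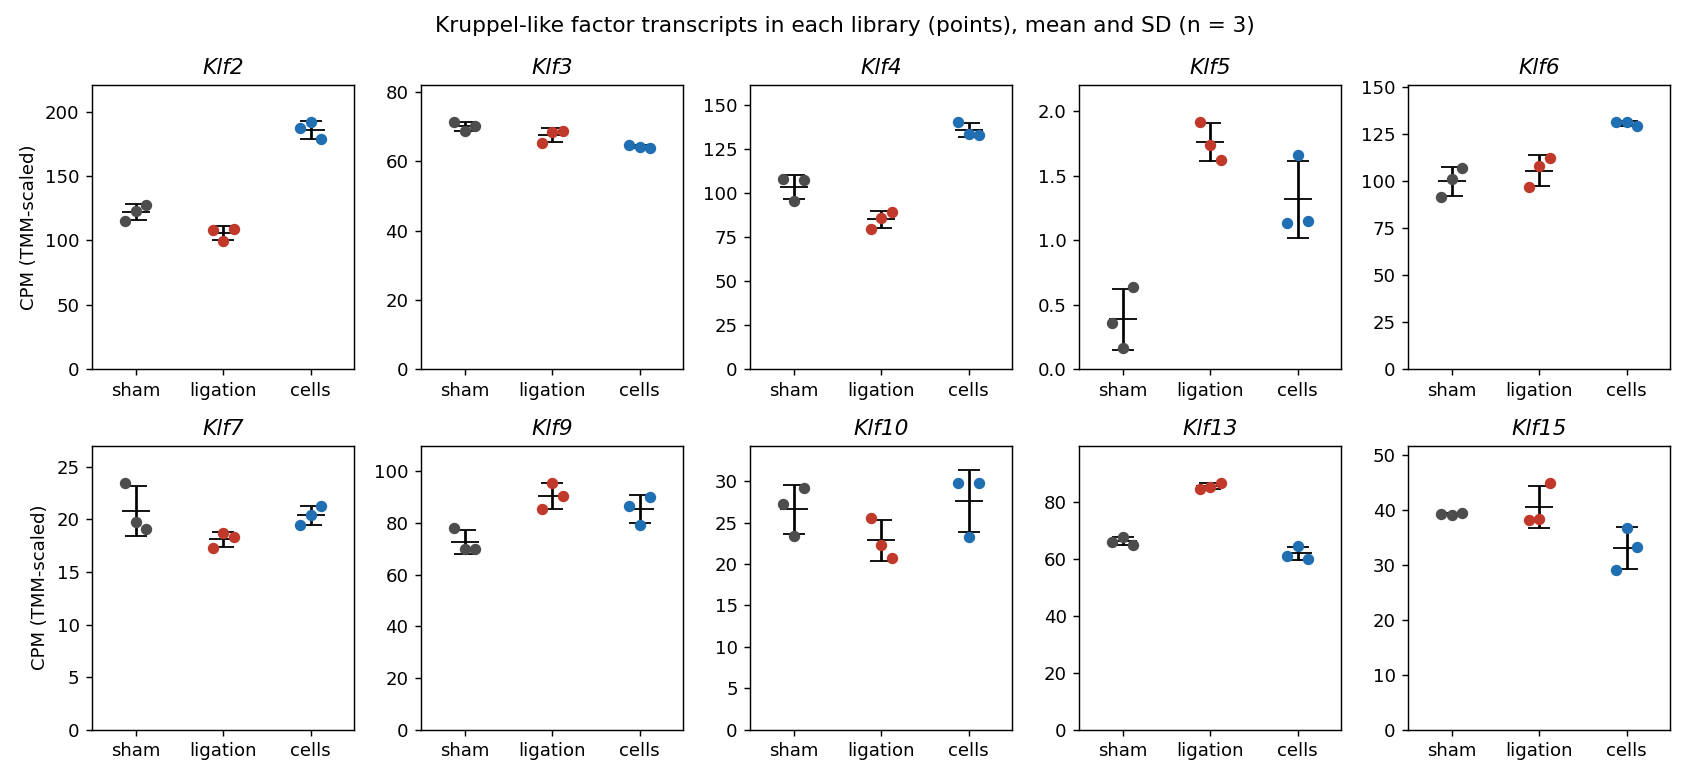
CPM of each factor (vertical axes, each from 0, with its own scale) in the 3 libraries of each group; bars are the mean and SD (n = 3). Klf2, Klf4 and Klf6 are highest in the cell libraries, and Klf13 is highest in the ligation libraries.

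Promoter sequence is shown for the 3 factors that were higher with cells against ligation and for Klf13, which was lower with cells, to set their upstream regions side by side. RefSeq windows on GRCm38.p6, from 250 bases before to 50 after the start, were found for 8 of the 10 factors, all but Klf5 and Klf10. The 250 upstream bases are written 5′ to 3′ on the gene's own strand. Capitals mark every match, on either strand, to the KLF and SP element CACCC, the GC box GGGCGG, the cyclic AMP response element core TGACG and the MEF2 site, some of which touch or overlap. The windows are chr8:72318812-72319061 (plus strand) for Klf2, chr4:55532476-55532725 (minus strand) for Klf4, chr13:5861239-5861488 (plus strand) for Klf6 and chr7:63938916-63939165 (minus strand) for Klf13.
Klf2: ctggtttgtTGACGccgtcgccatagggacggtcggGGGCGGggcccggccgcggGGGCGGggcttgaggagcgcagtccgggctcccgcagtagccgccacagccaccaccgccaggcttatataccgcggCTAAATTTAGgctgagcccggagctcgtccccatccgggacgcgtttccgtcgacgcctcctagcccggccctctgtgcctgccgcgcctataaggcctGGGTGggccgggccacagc
Klf4: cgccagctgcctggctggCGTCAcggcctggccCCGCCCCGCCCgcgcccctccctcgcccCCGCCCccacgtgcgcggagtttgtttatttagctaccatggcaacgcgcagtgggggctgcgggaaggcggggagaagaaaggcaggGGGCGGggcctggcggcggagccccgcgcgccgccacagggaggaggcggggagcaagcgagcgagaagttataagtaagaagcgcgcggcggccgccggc
Klf6: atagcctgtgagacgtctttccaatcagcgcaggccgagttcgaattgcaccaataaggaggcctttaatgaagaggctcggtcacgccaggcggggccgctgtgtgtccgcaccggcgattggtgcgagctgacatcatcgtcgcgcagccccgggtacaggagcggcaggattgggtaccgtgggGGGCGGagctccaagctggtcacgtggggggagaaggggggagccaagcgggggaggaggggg
Klf13: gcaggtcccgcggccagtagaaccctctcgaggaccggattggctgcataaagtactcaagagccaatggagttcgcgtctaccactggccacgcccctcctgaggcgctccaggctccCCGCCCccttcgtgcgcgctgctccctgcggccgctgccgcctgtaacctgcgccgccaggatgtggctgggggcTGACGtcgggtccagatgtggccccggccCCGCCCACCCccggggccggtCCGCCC
Over the whole windows, the GC box matched in 7 of the 8 factors, against 35.7% of 32851 RefSeq promoter windows of the same length. CACCC matched in 6 of 8 (57.5% of all windows) and TGACG in 6 of 8 (20.8%). The MEF2 site, bound by the factors that the flow-activated kinase Mapk7 switches on, matched in Klf2 alone, from 118 to 109 bases before the start, and in 3.19% of all windows. The CArG box of serum response factor and the TATAAA element matched in 0 of the 8, against 1.63% and 13.6% of all windows. GC content was 58.3% to 76.7% in the 8 windows, with a median of 52.7% over all windows, and GC-rich matches are more frequent where GC content is high. The map of matches shows Klf6 with a single one, a GC box, and Klf3 with the most.

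**Figure D4:**
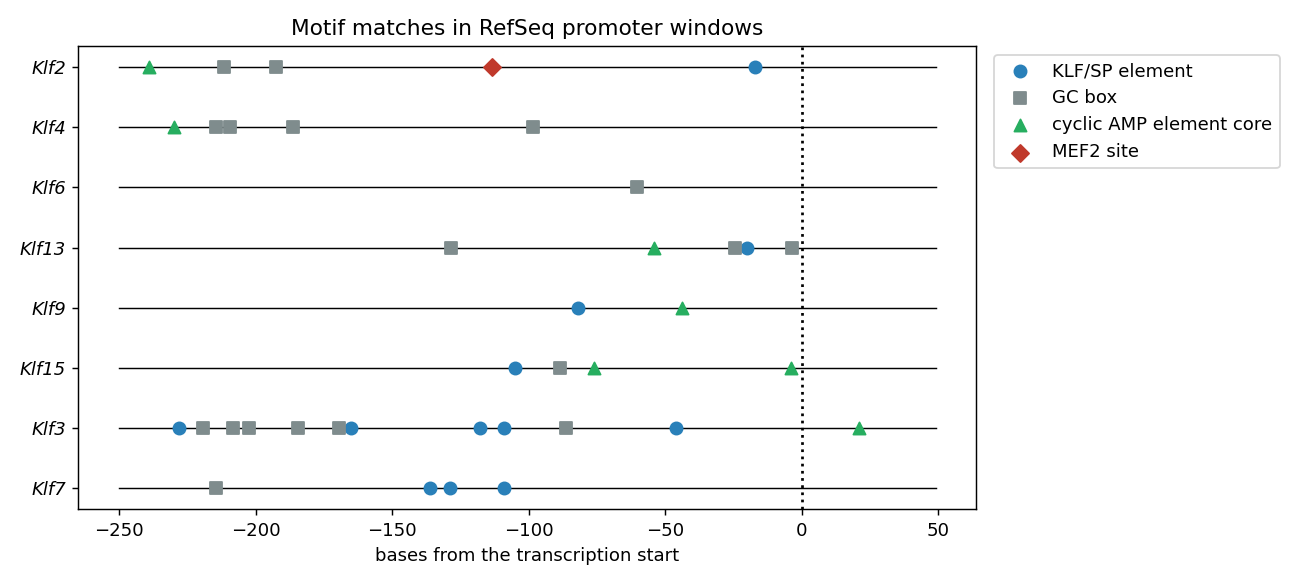
Motif matches on either strand in the RefSeq promoter windows of 8 factors, by distance in bases from the transcription start (horizontal axis, 0 is the start). The MEF2 match is in Klf2 only, and 7 of the 8 windows hold a GC box.

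Klf5, a growth-promoting activator in smooth muscle and fibroblasts, was close to the limit of detection. It had 2, 1 and 4 counts in sham, 9, 12 and 13 in ligation, and 8, 12 and 8 with cells, that is 0.385 ± 0.236, 1.76 ± 0.148 and 1.32 ± 0.301 CPM (SD, n = 3). Sham libraries lay below the other 6. The summed counts gave a ratio of 4.46 for ligation to sham (exact 95% interval 1.94 to 11.9) and 3.39 for cells to sham (1.45 to 9.20), intervals that cover counting error only. Klf5 met the filter on low counts through the ligation libraries, where it is high, and had no value when only cells and sham were fitted. A gene kept in this way had to be high in ligation, so its edgeR adjusted p-values of 0.00372 for ligation and 0.0180 for cells against sham are given as description. For cells against ligation the adjusted p was 0.630. The call against sham in the cell group was lost without sham replicate 1 or 2 or cell replicate 2 and with DESeq2 (adjusted p 0.0543, 0.0969, 0.0713 and 0.0580).

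Klf7, the remaining activator, stood at 23.5, 19.8 and 19.0 CPM in sham, 17.3, 18.7 and 18.4 CPM in ligation, and 19.4, 20.4 and 21.3 CPM with cells. It passed in no comparison (edgeR adjusted p 0.230, 0.442 and 0.887), and the intervals were 0.738 to 1.04 fold, 0.947 to 1.33 fold and 0.832 to 1.16 fold. Genes on the opposite strand overlap 39.4% of its exonic bases, and 38.7% of the 31-mers of its transcripts also occur in another gene. Since the strand setting of the counting is not stated, the fate of reads in that overlap is not known. They may have been counted for Klf7, counted for those genes or left out as ambiguous.

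Klf13, a Sin3-binding factor known for roles in cardiac development and lymphocyte survival, was highest in the ligation group. It stood at 66.0, 67.7 and 64.9 CPM in sham, 84.8, 85.2 and 86.9 CPM in ligation, and 61.0, 64.8 and 60.2 CPM with cells. The ligation libraries lay above the other 6, and the spread within the group was 1.09 CPM (SD, n = 3). Klf13 was 1.29-fold its sham level after ligation (95% interval 1.18 to 1.42, edgeR adjusted p 7.87e-05) and 0.724-fold its ligation level with cells (0.661 to 0.792, edgeR adjusted p 2.98e-05). Cells against sham did not pass (0.936-fold, 0.854 to 1.03, edgeR adjusted p 0.254). The same 3 ligation libraries stand on opposite sides of the 2 comparisons that passed. The gene lies at chr7:63886351-63938915 on the minus strand, and the annotation places no other gene over its exons.

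Klf9, a Sin3-binding factor that glucocorticoids and thyroid hormone induce, rose after ligation and stayed above sham with cells. It stood at 78.0, 69.7 and 70.0 CPM in sham, 85.2, 95.5 and 90.4 CPM in ligation, and 86.5, 79.2 and 89.9 CPM with cells. Sham was below both other groups, which overlapped each other. The ratio of ligation to sham was 1.25-fold (95% interval 1.13 to 1.39, edgeR adjusted p 0.00126) and that of cells to sham 1.18-fold (1.06 to 1.30, edgeR adjusted p 0.0128). The second of these missed the threshold without sham replicate 2, sham replicate 3 or cell replicate 3 (edgeR adjusted p 0.0525, 0.0528 and 0.0732). For cells against ligation the interval was 0.850 to 1.04 fold (edgeR adjusted p 0.502).

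Klf10, first described as a TGF-beta inducible early gene, stood at 27.2, 23.4 and 29.2 CPM in sham, 25.6, 22.3 and 20.8 CPM in ligation, and 29.8, 23.3 and 29.8 CPM with cells. The groups overlapped. It passed in no comparison, and for cells against ligation the ratio was 1.22-fold with an interval of 1.02 to 1.46 and an unadjusted p of 0.0288 (edgeR adjusted p 0.158).

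Klf3, the CtBP-binding repressor, ranged from 68.7 to 71.4 CPM in sham, 65.2 to 68.9 CPM in ligation and 63.8 to 64.7 CPM with cells. It passed in no comparison (edgeR adjusted p 0.574, 0.526 and 0.118), with intervals of 0.882 to 1.06 fold, 0.867 to 1.04 fold and 0.838 to 1.004 fold.

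Klf15, the metabolic regulator of cardiomyocytes, stood at 39.2, 39.0 and 39.4 CPM in sham, 38.1, 38.3 and 44.9 CPM in ligation, and 29.1, 36.6 and 33.3 CPM with cells. Sham and ligation overlapped (0.905 to 1.19 fold, edgeR adjusted p 0.694), and every cell library was below both. The ratio of cells to ligation was 0.811-fold (95% interval 0.707 to 0.930, edgeR adjusted p 0.0486) and that of cells to sham 0.842-fold (0.733 to 0.968, edgeR adjusted p 0.0450). Both lie just inside the threshold. The first missed it in 13 of 19 alternatives (adjusted p 0.0186 to 0.278 over all of them) and the second in 10 of 19 (0.0144 to 0.490). Blocking on the replicate number, the first had an edgeR adjusted p of 0.0602. Without ligation replicate 3, the highest of that group, it fell by 0.21 on the log2 scale in place of 0.30 (edgeR adjusted p 0.278).

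Of the other 7 genes of the family, Klf11, Klf12 and Klf16 were tested and 0 of the 3 passed in any comparison by edgeR. The number of these 3 at an unadjusted p under 0.05 in edgeR, or past the threshold in DESeq2, was also 0 in each comparison. Over all tested genes 38.2% passed by edgeR after ligation, 9.87% with cells against ligation and 40.9% with cells against sham. Klf11 was at 18.2 ± 0.288, 18.1 ± 1.48 and 18.5 ± 0.583 CPM in sham, ligation and cells (SD, n = 3). Klf1, the erythroid factor, had 0 counts in sham and at most 4 in any other library. Klf8 had at most 10 counts, Klf14 at most 2, and Klf17 was at 0 counts in all 9. Of 9 SP factors, the relatives that bind the same GC-rich sites, 4 were tested. Sp3 was higher with cells than in ligation (67.1 ± 9.70 against 55.3 ± 4.05 CPM, edgeR adjusted p 0.0493), with overlapping libraries and no call by DESeq2 or limma-voom. Against sham (54.2 ± 2.01 CPM) it was also higher with cells (edgeR adjusted p 0.00974), a call that DESeq2 and limma-voom made too. Sp1 was at 54.0 ± 4.21, 53.4 ± 5.12 and 53.6 ± 4.37 CPM in sham, ligation and cells.

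Among genes acting above Klf2 and Klf4, 10 kinases, MEF2 factors and genes of the cerebral cavernous malformation complex, which dampens that kinase route, were tested. After ligation 0 were higher and 1 was lower, Heg1, an endothelial receptor that anchors that complex (fell by 0.15 on the log2 scale, edgeR adjusted p 0.0436), where 38.2% of all genes were called in either direction. With cells against ligation 0 passed by edgeR or DESeq2, and 1 had an unadjusted p under 0.05 in edgeR, where 9.87% of all genes were called. Of 12 corepressors, coactivators and ubiquitin ligases of the family, 2 rose (Kat2b and Wwp1) and 3 fell (Hdac1, Hdac2 and Fbxw7) after ligation, a share near the 38.2% called over all genes. With cells against ligation 0 passed by edgeR or DESeq2, and 4 had an unadjusted p under 0.05 in edgeR, beside the same 9.87%. Kat2b, an acetyltransferase, rose by 0.50 on the log2 scale, and Hdac1, a deacetylase, and Fbxw7, a ubiquitin ligase that marks Klf2 and Klf5 for degradation, fell by 0.49 and 0.47 (edgeR adjusted p 3.63e-06, 0.00485 and 0.000260).

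Of 12 endothelial genes known to respond to Klf2 or Klf4, 2 rose and 5 fell after ligation (median -0.21 on the log2 scale), and 3 rose and 1 fell with cells against ligation (median -0.05). Over all genes 38.2% and 9.87% were called in these comparisons, with medians of 0.01 and 0.00. The 5 that fell were Nos3, Thbd, Plat, Ptgds and Aqp1, and the 3 that rose with cells were Plat, Aqp1 and Nqo1. Ptgds, a prostaglandin synthase, fell by 0.59 on the log2 scale after ligation, and Cyp1b1, a cytochrome P450, rose by 1.02 (edgeR adjusted p 4.58e-10 and 1.05e-05). Nos3, the endothelial nitric oxide synthase and a standard Klf2 target, was at 34.4, 23.7 and 23.7 CPM on average in sham, ligation and cells (edgeR adjusted p 0.00114 after ligation and 0.973 with cells). Summed over 9 endothelial markers, the level was 2623 to 2756 CPM in sham, 1861 to 1980.5 CPM in ligation and 1953 to 1997 CPM with cells. After ligation 8 of the 9 were lower and 1 higher, and with cells against ligation 2 were higher and 1 lower. Divided by that sum, Klf2 was 0.0456 ± 0.00224 in sham, 0.0548 ± 0.00368 in ligation and 0.0946 ± 0.00358 with cells (SD, n = 3). The same ratio for Klf4 was 0.0387 ± 0.00354, 0.0439 ± 0.00119 and 0.0690 ± 0.00118. Ligation libraries were below sham in CPM and above sham in this endothelial ratio for both factors, and cell libraries were highest in both. The order depends on the marker list used: per fibroblast marker CPM, Klf2 was 0.0566 to 0.0615 in sham, 0.0276 to 0.0296 in ligation and 0.0515 to 0.0565 with cells. The fibroblast markers did not move as one after ligation: 5 of the 7 were higher and 1, Pdgfra, was lower.

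Of 12 metabolic and ion channel genes linked to Klf15, 8 fell and 0 rose after ligation (median -0.25, with 18.0% of all genes called lower), while Klf15 itself did not pass. With cells against ligation 5 rose (Bckdha, Dld, Kcnip2, Acadm and Cd36) and 0 fell (median 0.15, with 4.19% of all genes called higher), in the comparison where Klf15 was lower. Cd36, a fatty acid transporter, stood at 1962 ± 93.1 CPM in sham, 1300.3 ± 71.7 CPM in ligation and 1594 ± 38.9 CPM in the cell group (edgeR adjusted p 7.09e-10 and 7.97e-05). Lipe, the hormone-sensitive lipase, and Slc2a4, the insulin-responsive glucose transporter, fell by 0.62 and 0.41 on the log2 scale after ligation (edgeR adjusted p 2.46e-05 and 1.42e-06) and did not pass with cells against ligation. Cardiomyocyte markers moved with these genes after ligation, 6 of 8 being lower and 1 higher, and their part in the result was not tested.

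Glucocorticoids induce Klf9 and Klf15, and 11 of 12 genes known to respond to glucocorticoids could be tested. Of these 5 rose (Fkbp5, Per1, Tsc22d3, Zbtb16 and Cdkn1a) and 2 fell (Sgk1 and Mt1) after ligation. With cells against ligation 3 rose (Sgk1, Pdk4 and Dusp1) and 3 fell (Fkbp5, Zbtb16 and Mt1). The medians were 0.19 and -0.10 on the log2 scale, beside 0.01 and 0.00 over all genes, of which 38.2% and 9.87% were called. Fkbp5, a chaperone of the glucocorticoid receptor, stood at 43.0 ± 6.82 CPM in sham, 105 ± 8.30 in ligation and 48.6 ± 1.53 with cells. Zbtb16, a zinc finger repressor, stood at 25.2 ± 1.71, 50.3 ± 8.48 and 14.4 ± 2.14 CPM. Both changed in both comparisons (largest edgeR adjusted p 8.81e-07). Tsc22d3, an anti-inflammatory leucine zipper protein, rose by 0.99 on the log2 scale after ligation and, like Klf9, did not pass with cells against ligation (edgeR adjusted p 6.14e-11 and 0.342). Of 11 tested fibrotic genes linked to Klf5, Klf6 or Klf10, 3 rose and 2 fell (Acta2 and Eng) after ligation, again near the 38.2% called over all genes. Ccn2, a matricellular growth factor, Tgfbr1, a TGF-beta receptor, and Igf1 rose by 2.40, 0.93 and 0.59 on the log2 scale (edgeR adjusted p 8.00e-18, 3.41e-08 and 0.000141), and with cells against ligation Acta2 rose while Tgfb1 and Eng fell, 3 of 11 where 9.87% of all genes were called. The list medians were 0.16 and 0.01.

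Klf2, Klf4, Klf6 and Klf10 are also known as rapidly induced genes, and 14 immediate-early genes were set beside them. Of these 10 rose and 0 fell after ligation (median 0.52, with 20.1% of all genes called higher), and 12 rose and 0 fell with cells against ligation (median 0.98, with 4.19% called higher). Fosb, 1 of the 12, stood at 1.07, 1.03 and 2.64 CPM on average in sham, ligation and cells. It met the filter on low counts through the cell libraries, where it is high, so its call is given as description. Egr1 stood at 18.4 ± 3.35 CPM in sham, 27.4 ± 2.96 CPM in ligation and 127 ± 6.88 CPM in the cell group, cells against ligation having an edgeR adjusted p of 9.35e-13. Egr2 and Egr3 rose by 2.30 and 1.65 on the log2 scale with cells (edgeR adjusted p 8.23e-08 and 3.50e-06). Klf2 and Klf4 were lower after ligation, where 10 of these 14 genes were higher, and higher with cells, where 12 of the 14 were, Fosb included. The plot of gene lists shows the immediate-early genes as the column with the highest median in both panels.

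**Figure D5:**
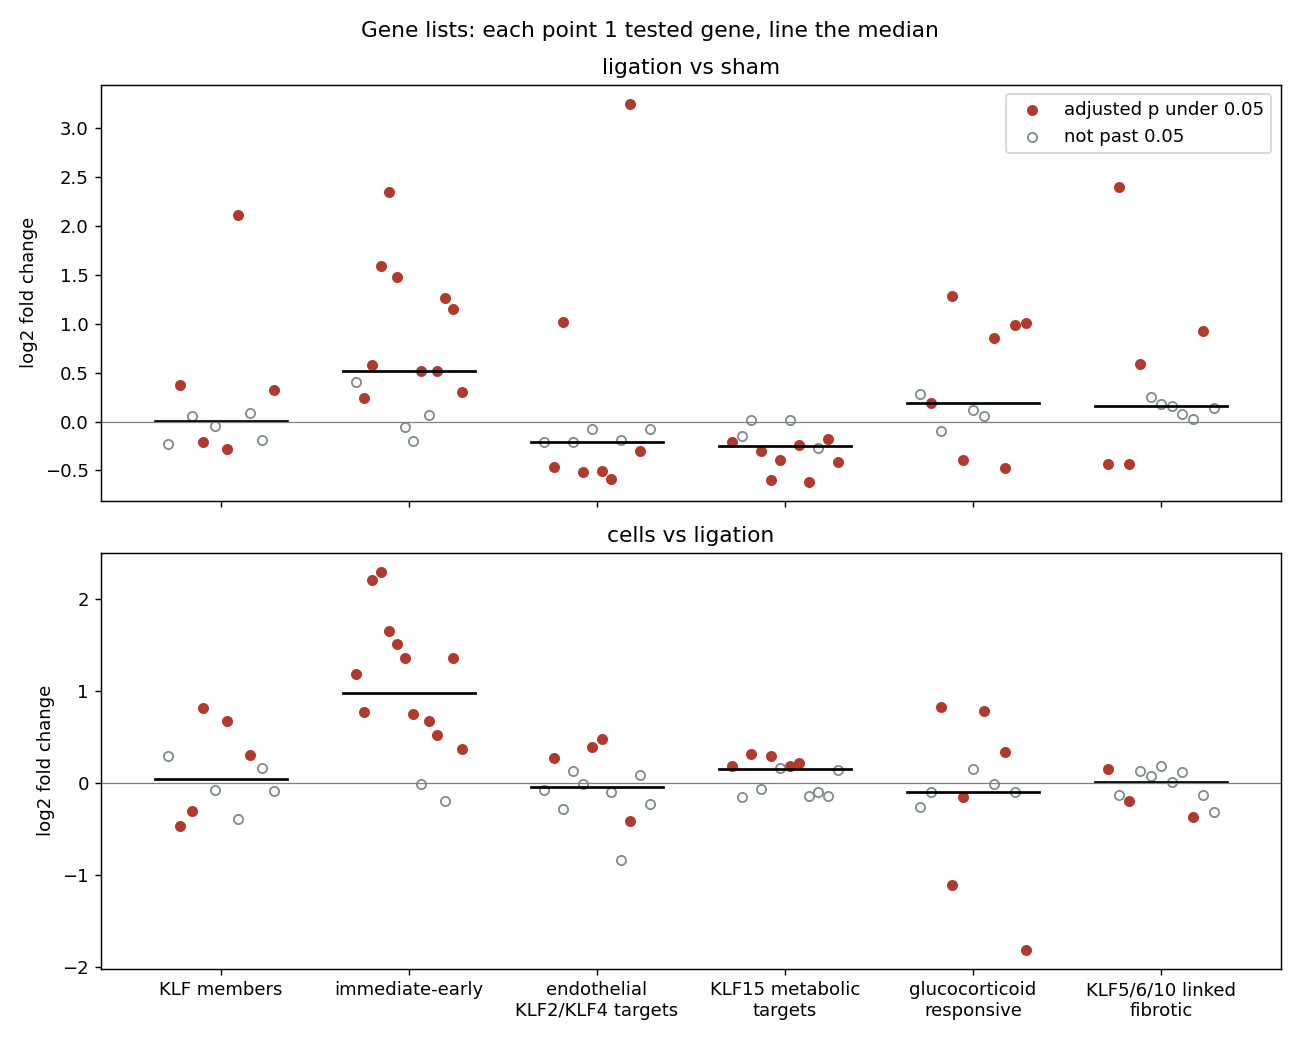
Log2 fold change (vertical axes) of each tested gene in the 10 factors and 5 related lists, for ligation against sham and cells against ligation; filled red points have an adjusted p under 0.05 and the line is the median. The immediate-early medians are 0.52 and 0.98, beside 0.00 and 0.05 for the 10 factors.

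The genes most like Klf2 over the 9 libraries, by Pearson correlation of log2(CPM + 0.25) among 9412 genes of at least 10 CPM, were Myl4 (r = 0.987), Apold1 (0.980) and Sln (0.974). The groups form separate clusters of libraries, so these values describe the pattern over groups. Myl4, the atrial essential light chain, stood at 195, 184 and 214 CPM in sham, 160.0, 139.6 and 133 CPM in ligation, and 494, 506 and 494 CPM with cells. Sln, sarcolipin, an atrial inhibitor of the calcium pump, stood at 61.2, 66.6 and 70.6 CPM in sham, 54.1, 55.7 and 56.4 CPM in ligation, and 195, 171 and 212 CPM with cells. Apold1, an endothelial immediate-early gene, was at 22.6 to 24.7 CPM in ligation and 40.9 to 45.5 CPM with cells. Because of Myl4 and Sln, the levels of 7 atrial genes (Myl4, Myl7, Sln, Bmp10, Gja5, Stard10 and Dkk3, chosen after these values were seen) were summed. The sum was 506 to 550 CPM in sham, 436 to 480 CPM in ligation and 1199 to 1271 CPM with cells. With cells against ligation 5 of the 7 were called higher (4.19% of all genes) and 1 lower (5.69%). Myl4 and Sln were in the list because they track Klf2. The other 5 genes summed to 251 to 265 CPM in sham, 247 to 273 CPM in ligation and 522 to 565 CPM with cells, so the cell libraries were also highest without Myl4 and Sln. Of these 5, 3 were called higher and 1 lower with cells against ligation. Divided by the sum of all 7, Klf2 was 0.227 to 0.243 in sham, 0.213 to 0.251 in ligation and 0.141 to 0.160 with cells, where it was lowest. The part of atrial tissue in the levels of Klf2, Klf4 and Klf6 was not tested.

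The genes most like Klf5 were Ncam1 (r = 0.982), Myom1 (0.981) and Ctdspl (0.974) among 9413 genes, which rest on 1 to 13 counts of Klf5 per library. Ncam1, a cell adhesion molecule, stood at 7.30, 5.93 and 10.001 CPM in sham, 20.3 to 24.1 CPM in ligation and 18.3 to 20.5 CPM with cells.

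Markers of other cell types were also summed in each library. The summed level of 8 macrophage and monocyte markers was 558 to 605 CPM in sham, 1045 to 1085 CPM in ligation and 424 to 445 CPM with cells. With cells against ligation 8 of 8 were called lower, beside 5.69% of all genes. The 7 fibroblast markers summed to 2031 to 2080 CPM in sham, 3614 to 3695 CPM in ligation and 3365 to 3468 CPM with cells. The 7 smooth muscle and pericyte markers summed to 1774 to 1827, 1262 to 1287 and 1269 to 1300.0 CPM. Both ligated groups were above sham in the fibroblast sum and below it in the smooth muscle sum. Of the fibroblast markers 5 were called higher after ligation (20.1% of all genes). Pdgfra was called lower and Tcf21 was not called (edgeR adjusted p 0.0490 and 0.664). The 5 mesothelial and epicardial markers summed to 30.95 to 42.9, 194 to 238 and 162 to 170 CPM, the 5 adipocyte markers to 4.61 to 8.57, 62.9 to 77.6 and 60.6 to 76.3 CPM, and the 7 neutrophil markers to 39.8 to 47.3, 17.7 to 25.03 and 5.76 to 7.21 CPM. Mesothelial and adipocyte sums were above sham in both ligated groups, and the neutrophil sum below it. Most of the neutrophil sum in sham was S100a8 and S100a9, the only 2 of 5 tested markers called lower after ligation (18.0% of all genes), while Mmp9 was called higher (1.68 to 4.04 CPM on average, edgeR adjusted p 0.0121). Mmp9 met the filter on low counts through the ligation libraries, where it is high, so its call is given as description. The 6 erythroid markers summed to 871 to 919, 1496 to 1596 and 663 to 680 CPM and the 7 skeletal muscle markers to 1558 to 1625, 1841 to 1910 and 2452 to 2516 CPM. Nearly all of the skeletal muscle sum was Acta1 and Ckm, which the heart also expresses. With cells against ligation Acta1 was the 1 member called higher (4.19% of all genes), while Tnnt3 and Pvalb were called lower (5.69%). Those called lower were at 3.02 and 3.18 CPM on average in ligation, and at 0.821 and 0.596 CPM in sham. They met the filter on low counts through the ligation libraries, where they are high, so their calls are given as description. Mitochondrially encoded genes took 19.1% to 19.9% of gene counts in sham, 12.5% to 13.9% in ligation, and 14.3% in every library of the cell group. The part of these differences in the levels of the factors was not tested, nor was whether reads of the implanted cells were counted in mouse genes.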

How the data were processed

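RNA-seq of 9 libraries in 3 groups of 3 was deposited as whole-number counts per Ensembl gene ID, which the authors made against mm10 per the submitters' processing notes; the counter, its strand setting and the annotation are not given in the sources used here. Closing lines of the deposited files with reads in no gene (4.14% to 4.91% of reads) and ambiguous reads (8.09% to 8.72%) were left out. Of 53465 IDs 53274 had a symbol.

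Counts were fitted in edgeR 4.0.16 (filterByExpr, TMM, quasi-likelihood, 1 mean per group, 6 residual degrees of freedom), with Benjamini-Hochberg adjustment over 13825 genes and a threshold of 0.05. CPM use TMM library sizes; 3 counts, the limit that 0 counts allow, were 0.375 to 0.639 CPM, for counting error only. The fitting code was also run on simulated counts, and the outcome is not reported here. Lengths are merged exons in GENCODE M21 (GRCm38). DESeq2 1.42.0, limma 3.58.1, other scalings, filters and left-out libraries were alternatives.

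Members and lists were chosen with earlier results of these data known. All 10 members were named, and up to 3 genes per list by the largest called change at a mean of at least 1 CPM. Genes behind most counts of 5 or fewer, and Nos3, were named after their values were seen; some list genes are not reported here.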

Additional observations from a re-analysis of the deposited data

Results flagged for a closer look

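The share of reads that fell outside annotated genes, which none of the comparisons uses, was 4.75% ± 0.155 in the ligation libraries (SD, n = 3). It was 4.21% ± 0.0350 in sham and 4.22% ± 0.113 with cells. It was listed because it lay above the level in the sham libraries.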

How the results depend on the processing

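Requiring a log2 fold change of at least 1 left 1, 0 and 1 of the 10 factors after ligation, with cells against ligation and with cells against sham, in place of 5, 5 and 6; the 1 left was Klf5, which met the filter on low counts through the ligation libraries. Leaving out 1 library at a time gave 4 to 5, 4 to 5 and 3 to 6, with 3 without sham replicate 2. With library totals in place of TMM the median gene moved by 0.189, -0.0304 and 0.158 in the 3 comparisons, and the share of calls that were higher went from 52.7% to 78.7%, from 42.4% to 32.0% and from 51.2% to 73.1%. The sign then turned for Klf3 in ligation against sham (0.14) and for Klf3 (0.0335), Klf7 (0.135) and Klf13 (0.0637) in cells against sham, none of them called. Leave-one-out fits also crossed 0 for Klf15 in ligation against sham (-0.0524 to 0.100) and for Klf7 (-0.0841 to 0.0693) and Klf10 (-0.0346 to 0.164) in cells against sham. Klf2, Klf4, Klf6 and Klf13 kept their calls in cells against ligation in all 19 other fits. Klf5 had no value in cells against sham when only those 2 groups were fitted. Deviations from the group means had correlations of -0.122 to 0.160 in same-numbered libraries and -0.25 to 0.205 in other pairs. With 3 libraries a group, these values cannot settle whether the replicate numbers mark a pairing. With a replicate block, the only call of the 10 to change was Klf15 in cells against ligation (-0.30, edgeR adjusted p 0.0602). Summing libraries that share a header stem, chosen after seeing the data, likewise ended only that call (-0.29, edgeR adjusted p 0.0889). Depth limits Klf5, at 1 to 13 counts a library.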
